A study of Homo sapiens with 9 samples.

Results

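The 30 genes described here were taken as transcriptional targets of p53, chosen by symbol from general knowledge of the p53 pathway. Whether p53 regulates each of them in these cells was not tested. All 30 symbols were present among the 23610 genes of the expression table, and they are picked by symbol alone, although the list was drawn up with earlier results of these data known. They were measured as polyA RNA in GIST-T1, an established human line of gastrointestinal stromal tumour (GIST), a tumour type related to the cells of Cajal that pace gut movement. The 9 libraries fall into 3 groups of 3: GIST-T1 with an sgRNA against ETV1, GIST-T1 with an sgRNA against HAND1, and GIST-T1 with an sgRNA against Luciferase as the control. ETV1 and HAND1 are transcription factors with genes of their own in these cells, so their sgRNAs have a genomic target, whereas the firefly gene for luciferase has no counterpart in human cells. The question put to the 30 transcripts was whether libraries with either targeting sgRNA differed in them from libraries with the control sgRNA.

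p53 is a transcription factor that is held at a low level by MDM2, which marks it for degradation. Breaks in both DNA strands, including those that Cas9 makes where an sgRNA matches the genome, activate the kinases ATM and CHK2, which release p53 from MDM2. The stabilised protein then binds a pair of short half-sites in its target genes, raising transcripts for growth arrest, DNA repair, apoptosis and its own feedback inhibition. In many GISTs the wild-type protein is retained, and its activation slows the growth of such cells. The labels do not name the effector protein used with the sgRNAs and call the perturbation a knockdown, so the presence of cuts in these cells was not measured. One line was used, with 1 named target per group, the number of sgRNAs per target is not stated, and separate cultures are not mentioned, so the p-values rest on the spread among the deposited libraries, which could be purely technical.

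The sequences that follow are matches to the DNA element that p53 binds, found near a start of transcription in some of the 30 genes. Each match is a pair of adjacent p53 half-sites of 10 letters, given in capitals with up to 5 flanking bases in lower case. They were read from the RefSeq promoter sequences of GRCh38.p14, on the strand of the gene, within the 250 bases before each annotated start. At least 17 of 20 consensus letters were needed, with the C at position 4 and the G at position 7 of each half-site kept. Positions are those of the capitals in GRCh38.p14. The number of letters required was chosen after looking at the promoters, and the files themselves use hg19, so these positions were not joined to any measured value.
SESN1, chr6:109009018-109009037, minus strand, 17 of 20 letters: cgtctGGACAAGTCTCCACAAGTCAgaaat
FAS, chr10:88991309-88991328, plus strand, 18 of 20 letters: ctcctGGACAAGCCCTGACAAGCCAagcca
MDM2, chr12:68808923-68808942, plus strand, 18 of 20 letters: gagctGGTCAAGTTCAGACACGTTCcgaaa
RPS27L, chr15:63157527-63157546, minus strand, 17 of 20 letters: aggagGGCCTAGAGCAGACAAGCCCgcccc
AEN, chr15:88621306-88621325, plus strand, 18 of 20 letters: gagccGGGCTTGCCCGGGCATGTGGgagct
FDXR, chr17:74872996-74873015, minus strand, 17 of 20 letters: ggcccGGGCAGGAGCGGGCTTGCCCt

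RefSeq promoters were found for 24 of the 30 genes; TP53INP1, TNFRSF10A, TNFRSF10B, RRM2B, PHLDA3 and GADD45A had no entry. A pair as defined above lay in 7 of 38 promoter windows of these genes, belonging to 6 genes, and in 321 of 35116 windows (0.914%) of the whole promoter table. The printed matches of SESN1, FAS and MDM2 overlap no annotated exon, and those of RPS27L, AEN and FDXR overlap an exon of the same gene. With 38 windows for 24 genes, some genes have several starts. A printed match before 1 start can thus lie inside the gene, past another start. Like most of the 38 windows, the single windows of PLK2, GDF15 and BTG2 and the 3 windows of TP53I11 held no such pair. These 4 genes are named because their levels are called different below. Elements elsewhere in or near the genes were not searched for, so a lack of p53 elements cannot be read from this. A single half-site with all 10 letters lay before PLK2 and is printed because PLK2 is the gene that differed most. It overlaps an exon of PLK2. Of all windows, 5.57% hold such a half-site. Single half-sites of the other genes among the 30 were not listed, so this one does not set PLK2 apart.
PLK2, chr5:58460209-58460218, minus strand, 10 of 10 letters: ggacaAGACTTGCTTcccgg
These matches describe the letters in a short window and say nothing of binding in these cells.

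Each targeting sgRNA went with a lower level of its own target transcript, as the labels have it. ETV1 averaged 11.4 ± 0.571 FPKM (fragments scaled to transcript length and library size; SD, n = 3 in every group) with ETV1 sgRNA, 40.8 ± 0.960 with HAND1 sgRNA and 39.7 ± 2.42 with Luciferase sgRNA. HAND1 averaged 38.3 ± 2.25 FPKM with HAND1 sgRNA, 132 ± 2.26 with ETV1 sgRNA and 114 ± 1.12 with Luciferase sgRNA. Relative to Luciferase sgRNA replicate 1, the other libraries had depths between 0.636 and 0.952, and the absolute depth is unknown because counts are not part of the table. Luciferase sgRNA replicate 3 had the highest sum of FPKM, 538689, against 451286 to 479939 in the other 8 libraries. Among the 26 of the 30 genes that averaged 1 FPKM or more, it was the highest of the Luciferase sgRNA libraries in 14 and the highest of all 9 libraries in 6. The 8 markers of GIST and interstitial cells of Cajal each had a mean of at least 1 FPKM, and CD34 and KIT averaged 1659 and 192 FPKM over the 9 libraries. Markers of other cell types with a mean under 1 FPKM were 7 of 8 for blood and endothelium, 3 of 6 for epithelium, and 6 of 6 for neurons and glia; the keratin KRT18, at 225 FPKM, was the highest of the rest.

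Differences were tested with limma on the scale log2(FPKM + 1), across the 11348 genes that averaged 1 FPKM or more. An adjusted p under 0.05 (Benjamini-Hochberg over all these genes, two-sided) is referred to as a call, and intervals are 95% confidence intervals. Both comparisons with the control use the same 3 Luciferase sgRNA libraries. On this scale a change in a transcript of low level is understated.

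Most p53 targets were present in all groups, at levels that spanned a wide range. The mean over the 9 libraries was at least 30 FPKM for 5 genes, at least 10 FPKM for 12 and between 1 and 10 FPKM for 14 more. The highest means were those of TRIAP1 (46.8 FPKM), TP53I11 (42.1 FPKM) and CCNG1 (34.8 FPKM). The remaining 4 genes, DDB2, PHLDA3, TNFRSF10A and EDA2R, had means under 1 FPKM and were not tested.

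**Figure D1:**
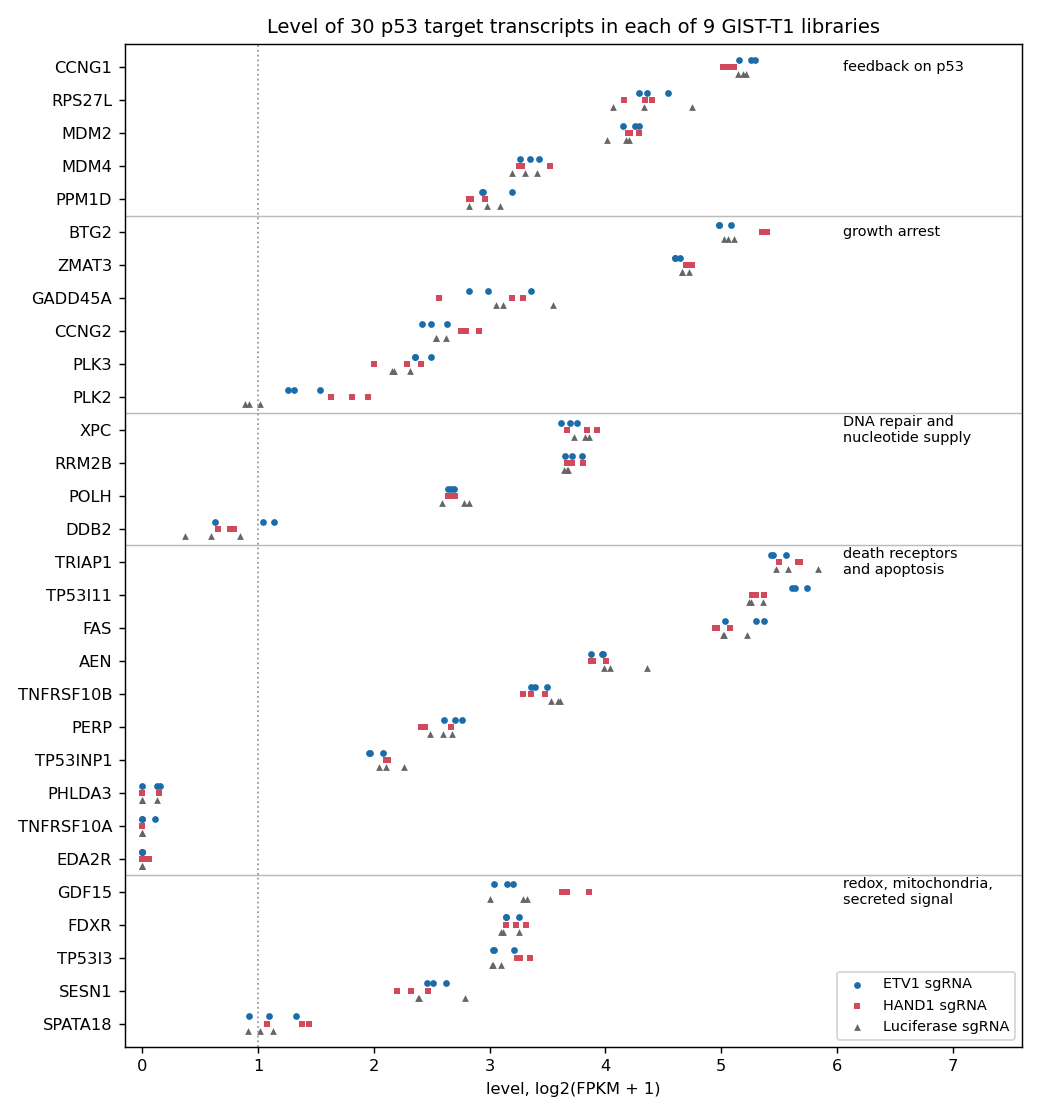
Level of each of the 30 p53 target transcripts in each library, as log2(FPKM + 1), with genes grouped by role and ordered by mean; the dotted line marks 1 FPKM. The HAND1 sgRNA libraries lie to the right of the others for BTG2 and GDF15, the ETV1 sgRNA libraries for TP53I11, and the Luciferase sgRNA libraries to the left for PLK2.

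Both targeting sgRNAs were set jointly against the control, as the mean of the ETV1 sgRNA and HAND1 sgRNA groups. A call for this mean can come from 1 group alone, so it need not be a change with both. GPR20, a GIST marker, was called for the mean (-0.45), with -0.84 for HAND1 sgRNA and -0.07, not called, for ETV1 sgRNA. Differences given below for both sgRNAs are those of this mean. In this comparison 1 of the 26 tested p53 targets was called, PLK2, which rose. Of all genes tested, 2.43% were called, 1.58% higher and 0.855% lower. An unadjusted p under 0.05 was reached by 6 of 26, against 15.4% of all genes, and the median difference was 0.02 for the 26 genes and -0.01 for all genes. The 6 targeting libraries all lay above the 3 control libraries for 1 gene, PLK2, against 3.35% of all genes. For 1 gene, TNFRSF10B, the 6 all lay below the control libraries, against 2.86% of all genes and 6.2% in either direction. For 24 of 26 genes the whole confidence interval for this mean lay within a 1.5-fold change of FPKM + 1 in either direction. PLK2 and GADD45A were the exceptions. With ETV1 sgRNA alone the count was also 24 of 26, and with HAND1 sgRNA alone it was 22. There GDF15 (interval 0.29 to 0.74) and SPATA18 (-0.05 to 0.61) passed the bound as well. For genes of low level this bound allows a larger fold change in FPKM itself. When each sgRNA was set against the control on its own, 0 of 26 p53 targets were called in the same direction with both, against 0.123% of all genes (14 of 11348). With ETV1 sgRNA 3 of 26 and with HAND1 sgRNA 6 of 26 had an unadjusted p under 0.05, against 8.2% and 20.3% of all genes. These shares stand on few genes, and no test of the 26 as a list was made.

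PLK2, a serine/threonine kinase of the polo-like family that acts in G1 and in the response to DNA damage, was at 1.48, 1.40 and 1.90 FPKM with ETV1 sgRNA and at 2.09, 2.51 and 2.86 FPKM with HAND1 sgRNA. With Luciferase sgRNA it was at 0.891, 0.856 and 1.03 FPKM. The 3 groups did not overlap, with HAND1 sgRNA highest and Luciferase sgRNA lowest. In bulk RNA, fewer or more cells with a transcript and less or more of it per cell cannot be told apart. The difference was 0.64 (SE 0.11, interval 0.40 to 0.88, adjusted p = 0.0133) for both targeting sgRNAs against the control. It was 0.85 (SE 0.13, adjusted p = 0.00271) for HAND1 sgRNA and 0.43 (SE 0.13, adjusted p = 0.369, not called) for ETV1 sgRNA. HAND1 sgRNA against ETV1 sgRNA differed by 0.43 (adjusted p = 0.106) and was not called either. PLK2 is the least abundant of the called genes. With Luciferase sgRNA it averaged 0.925 FPKM, under the 1 FPKM minimum set for the mean of all libraries. It passed that minimum through the targeting groups, which averaged 1.59 FPKM with ETV1 sgRNA and 2.49 FPKM with HAND1 sgRNA. A gene as low in the control that did not rise would not have been tested. The PLK2 call with both sgRNAs together was lost without Luciferase sgRNA replicate 1 (adjusted p = 0.0619) or replicate 2 (adjusted p = 0.0756), while the difference stayed at 0.63 and 0.61. Its size depends on the pseudocount: with 5 and 0.1 in place of 1, the difference was 0.24 and 1.02 for both sgRNAs and 0.34 and 1.33 for HAND1 sgRNA, and it was called each time.

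Feedback on p53 comes from the products of MDM2, MDM4, PPM1D, CCNG1 and RPS27L. Limma called 0 of these 5 in any comparison, where 0.203% to 6.6% of all genes were called. An unadjusted p under 0.05 was reached by 1 of the 5, CCNG1, between HAND1 sgRNA and ETV1 sgRNA, against 15.4% of all genes. MDM2, the ubiquitin ligase of p53 and one of its most widely used reporter transcripts, was at 18.1, 18.5 and 16.8 FPKM with ETV1 sgRNA and 17.3, 17.5 and 18.5 FPKM with HAND1 sgRNA. In the control it was at 17.1, 17.4 and 15.2 FPKM. The groups overlapped, and the lowest value of all was that of Luciferase sgRNA replicate 3. The difference with both targeting sgRNAs was 0.10 (interval -0.03 to 0.23, adjusted p = 0.479), and it was 0.04 (adjusted p = 0.803) without that library. MDM4, which binds p53 and blocks its activity, ranged from 8.15 to 10.5 FPKM, and PPM1D, a phosphatase that removes activating phosphates from p53, from 6.08 to 8.13 FPKM, with overlapping groups for both genes.

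CCNG1, which encodes cyclin G1, was at 37.3, 38.2 and 34.6 FPKM with ETV1 sgRNA, 32.4, 33.6 and 31.2 FPKM with HAND1 sgRNA and 36.1, 35.4 and 34.3 FPKM with Luciferase sgRNA. The HAND1 sgRNA libraries lay below all others, but the difference was not called against the control (-0.12, adjusted p = 0.266) or against ETV1 sgRNA (-0.17, adjusted p = 0.139). RPS27L, a ribosomal protein paralogue that binds MDM2, ranged from 15.7 to 25.8 FPKM, both within the control group. Its control libraries thus covered the whole range of the other groups (20.1 ± 1.89 with ETV1 sgRNA, 18.8 ± 1.66 with HAND1 sgRNA, 20.2 ± 5.14 with Luciferase sgRNA). The interval for both sgRNAs ran from -0.31 to 0.26. Without Luciferase sgRNA replicate 3, which held the highest value, the difference was 0.15 (adjusted p = 0.490).

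Of the 6 growth arrest genes, 2 were called in at least 1 comparison, PLK2 and BTG2. Of all genes, 0.203% to 6.6% were called in a single comparison. With so few genes, nothing particular to the group can be read from this count. BTG2, an antiproliferative protein that recruits the deadenylation machinery to transcripts, was at 30.6, 32.8 and 30.6 FPKM with ETV1 sgRNA, 40.0, 39.7 and 41.1 FPKM with HAND1 sgRNA and 31.5, 32.4 and 33.6 FPKM with Luciferase sgRNA. The HAND1 sgRNA libraries lay above all others, and the other groups overlapped. BTG2 rose by 0.30 with HAND1 sgRNA against the control (SE 0.05, adjusted p = 0.00587) and was not called with ETV1 sgRNA (-0.05, adjusted p = 0.861). The direct comparison of HAND1 sgRNA with ETV1 sgRNA gave 0.35 (SE 0.05, adjusted p = 0.00342), so the BTG2 level differed between the targeting groups.

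CCNG2, a cyclin of quiescent cells, was also highest in the 3 HAND1 sgRNA libraries, at 6.06 ± 0.391 FPKM, against 4.73 ± 0.434 with ETV1 sgRNA and 4.93 ± 0.201 with Luciferase sgRNA. Its difference of 0.25 from the control was not called (adjusted p = 0.118). GADD45A, a stress-induced inhibitor of the G2 to M transition, varied more within groups than any difference between them. It was at 7.41 ± 1.64 FPKM with ETV1 sgRNA, 7.29 ± 2.08 with HAND1 sgRNA and 8.56 ± 1.83 with Luciferase sgRNA, and the interval for both sgRNAs was wide, from -0.60 to 0.20. ZMAT3, an RNA-binding zinc finger protein, ranged from 23.2 to 25.9 FPKM, and PLK3, another polo-like kinase, from 3.01 to 4.63 FPKM, and neither was called in any comparison.

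**Figure D2:**
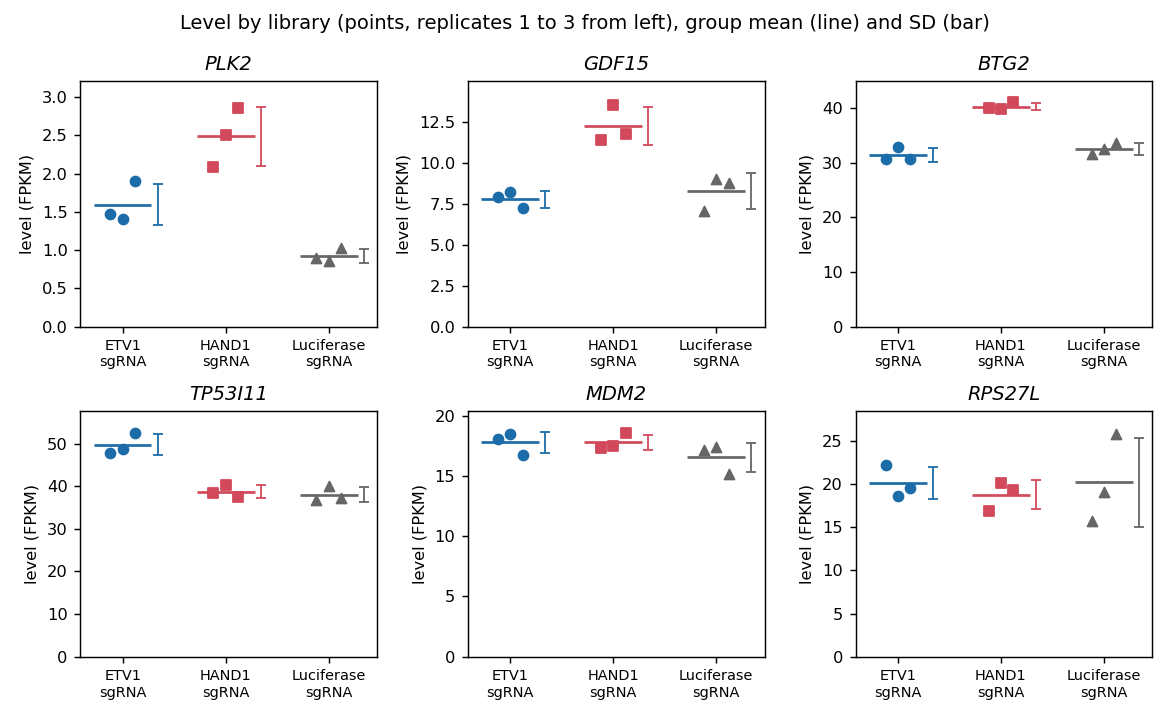
Level in FPKM of PLK2, GDF15, BTG2, TP53I11, MDM2 and RPS27L in each library (points), with the group mean (line) and SD (bar) of 3 libraries; every axis starts at 0. PLK2 is lowest in the Luciferase sgRNA libraries, GDF15 and BTG2 are highest with HAND1 sgRNA, TP53I11 is highest with ETV1 sgRNA, and the groups overlap for MDM2 and RPS27L.

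The DNA repair and nucleotide supply genes held 3 tested members, of which limma called 0, and 0 had an unadjusted p under 0.05 in any comparison. Of all genes, 0.203% to 6.6% were called in a comparison, and 8.2% to 20.3% had an unadjusted p under 0.05. XPC, the damage sensor of global nucleotide excision repair, ranged from 11.3 to 14.3 FPKM. RRM2B, the p53-inducible subunit of ribonucleotide reductase, ranged from 11.5 to 13.0 FPKM, and POLH, a translesion DNA polymerase, from 5.01 to 6.06 FPKM. The groups overlapped for all 3 genes. DDB2, the partner of XPC in recognising ultraviolet damage, was too low for the test, at 1.21, 0.547 and 1.06 FPKM with ETV1 sgRNA, 0.577, 0.733 and 0.690 FPKM with HAND1 sgRNA and 0.290, 0.796 and 0.511 FPKM with Luciferase sgRNA. Its groups overlapped too.

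Death receptor and apoptosis genes were the largest group, with 10 genes, of which 7 were tested and 1, TP53I11, was called. Of all genes, 0.203% were called with ETV1 sgRNA against the control and 4.05% between the targeting sgRNAs. TP53I11, a protein induced by p53 and also known as PIG11, was at 47.9, 48.7 and 52.5 FPKM with ETV1 sgRNA, 38.4, 40.4 and 37.4 FPKM with HAND1 sgRNA and 36.7, 40.0 and 37.3 FPKM with Luciferase sgRNA. The ETV1 sgRNA libraries lay above all others, and the other groups overlapped. TP53I11 rose by 0.38 with ETV1 sgRNA (SE 0.06, adjusted p = 0.0324), against 0.03 (adjusted p = 0.848, not called) with HAND1 sgRNA. HAND1 sgRNA against ETV1 sgRNA differed by -0.35 (adjusted p = 0.00683). The call of ETV1 sgRNA against the control was lost when any single library was left out, with adjusted p between 0.0571 and 0.167, whereas the call between the targeting sgRNAs was not lost in any of those fits.

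TNFRSF10B, the TRAIL receptor DR5, was at 9.48, 10.3 and 9.24 FPKM with ETV1 sgRNA, 9.26, 8.80 and 10.1 FPKM with HAND1 sgRNA and 10.6, 11.2 and 11.1 FPKM with Luciferase sgRNA. It lay below the control in 6 of 6 targeting libraries, with a difference of -0.18 (interval -0.32 to -0.04, adjusted p = 0.184), and was not called. AEN, an exonuclease that p53 induces in apoptosis, was at 14.7, 14.8 and 13.7 FPKM with ETV1 sgRNA, 15.1, 13.7 and 13.9 FPKM with HAND1 sgRNA and 14.9, 15.5 and 19.6 FPKM with Luciferase sgRNA. The groups overlapped in part, and the single high value was that of Luciferase sgRNA replicate 3. Its difference with both sgRNAs was -0.20 (adjusted p = 0.290) with that library and -0.08 (adjusted p = 0.610) without it. TRIAP1, a small mitochondrial protein that protects cells from apoptosis, was at 42.1, 42.7 and 46.2 FPKM with ETV1 sgRNA, 44.3, 50.1 and 49.5 FPKM with HAND1 sgRNA and 43.4, 46.8 and 56.0 FPKM with Luciferase sgRNA. Its groups overlapped, again with the highest value in Luciferase sgRNA replicate 3.

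FAS, the receptor of FAS ligand, ranged from 29.9 to 40.4 FPKM with overlapping groups. PERP, a membrane protein of desmosomes, ranged from 4.31 to 5.78 FPKM, and TP53INP1, a nuclear protein that promotes p53 phosphorylation and autophagy, from 2.88 to 3.80 FPKM; neither was called. The other TRAIL receptor in the set, TNFRSF10A, was listed at 0 in all libraries except ETV1 sgRNA replicate 3, which had 0.0807 FPKM. EDA2R, the receptor of ectodysplasin A2, was listed at 0 except in HAND1 sgRNA replicates 2 and 3, at 0.0304 and 0.0430 FPKM. PHLDA3, an inhibitor of AKT, reached at most 0.116 FPKM.

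Among the 5 genes for redox control, mitochondria and secreted signals, 1 was called, in the comparisons where 6.6% and 4.05% of all genes were. GDF15, a secreted cytokine of the TGF-beta superfamily that many stresses induce, was at 7.89, 8.21 and 7.20 FPKM with ETV1 sgRNA, 11.4, 13.5 and 11.7 FPKM with HAND1 sgRNA and 7.02, 8.999 and 8.76 FPKM with Luciferase sgRNA. The HAND1 sgRNA libraries lay above all others, and the other groups overlapped. GDF15 rose by 0.52 with HAND1 sgRNA against the control (SE 0.10, adjusted p = 0.0125) and by 0.59 against ETV1 sgRNA (SE 0.10, adjusted p = 0.00857). With ETV1 sgRNA it was not called (-0.07, adjusted p = 0.910). Without HAND1 sgRNA replicate 2 its call against the control was lost (adjusted p = 0.0559).

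TP53I3, a quinone oxidoreductase also known as PIG3, was at 7.55 ± 0.603 FPKM with ETV1 sgRNA, 8.74 ± 0.414 with HAND1 sgRNA and 7.29 ± 0.239 with Luciferase sgRNA. The HAND1 sgRNA libraries lay above all others, without a call against the control (0.23, adjusted p = 0.103). FDXR, the mitochondrial ferredoxin reductase, ranged from 7.55 to 8.97 FPKM, SESN1, a sestrin that restrains mTORC1, from 3.61 to 5.90 FPKM, and SPATA18, a protein of mitochondrial quality control, from 0.880 to 1.71 FPKM. The groups of these 3 genes overlapped in every comparison.

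**Figure D3:**
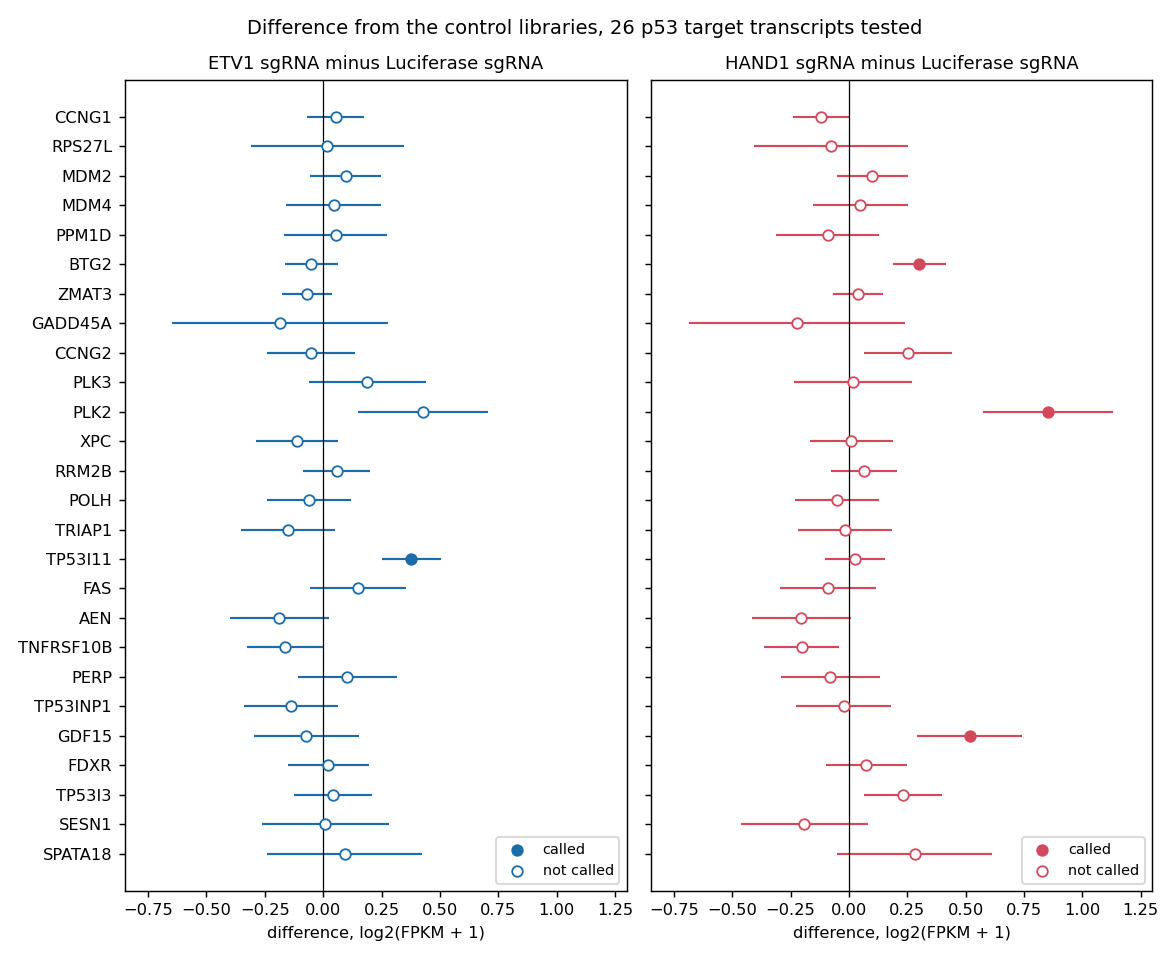
Difference of the 26 tested p53 targets from the Luciferase sgRNA libraries with ETV1 sgRNA (left) and HAND1 sgRNA (right), on the scale log2(FPKM + 1), with 95% confidence intervals (bars); filled points are calls. With ETV1 sgRNA 1 gene is filled, TP53I11, and with HAND1 sgRNA 3 are, PLK2, GDF15 and BTG2.

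By sgRNA, the calls were as follows. With ETV1 sgRNA 1 of 26 was called, TP53I11, which kept its call in 6 of 19 alternative analyses, against 0.203% of all genes (0.141% higher and 0.0617% lower). With HAND1 sgRNA 3 of 26 were called, all higher, against 6.6% of all genes (3.67% higher and 2.93% lower). PLK2, one of the 3, also lay above all control libraries with ETV1 sgRNA, and its difference between the targeting sgRNAs was not called. Groups that did not overlap were found for 6 of 26 genes with ETV1 sgRNA, 3 above and 3 below the control, against 12.9% of all genes (6.88% above and 6% below). With HAND1 sgRNA they were found for 7 of 26, 5 above and 2 below, against 25.7% of all genes (13% above and 12.7% below). In the HAND1 sgRNA libraries CD68, a lysosomal protein of macrophages that other cells express too, also rose (6.13 ± 0.692 FPKM, against 4.06 ± 0.629 with Luciferase sgRNA; difference 0.50, adjusted p = 0.0466). It was the one marker of 8 for blood and endothelial cells that was abundant enough to be tested. The 8 summed to between 5.46 and 9.79 FPKM with ETV1 sgRNA, between 5.60 and 8.95 FPKM with HAND1 sgRNA and between 4.11 and 5.28 FPKM with Luciferase sgRNA. The highest sums, in ETV1 sgRNA replicate 1 and HAND1 sgRNA replicate 2, included the haemoglobin gene HBB at 3.59 and 1.11 FPKM. HBB was at 0 FPKM in every Luciferase sgRNA library, in ETV1 sgRNA replicate 2 and in HAND1 sgRNA replicate 1. PTPRC, the marker of all leukocytes, reached at most 0.0581 FPKM in any library. Of the 8 markers of GIST and interstitial cells of Cajal, 4 were called lower with HAND1 sgRNA, namely HAND1 itself, KIT (159.9 ± 4.51 FPKM, against 209 ± 11.3 with Luciferase sgRNA; -0.38, adjusted p = 0.00336), GPR20 and PRKCQ. The part of these markers in the differences with HAND1 sgRNA was not tested.

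Between the targeting sgRNAs, 3 of 26 p53 targets were called for HAND1 sgRNA against ETV1 sgRNA, against 4.05% of all genes (2.01% higher and 2.04% lower). GDF15 and BTG2 were higher and TP53I11 was lower with HAND1 sgRNA. An unadjusted p under 0.05 was reached by 9 of 26, against 15.4% of all genes, and the groups did not overlap for 9 of 26, 7 above and 2 below, against 22.4% (10.9% above and 11.5% below). For MDM2 the difference was 0.00 (interval -0.15 to 0.15).

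**Figure D4:**
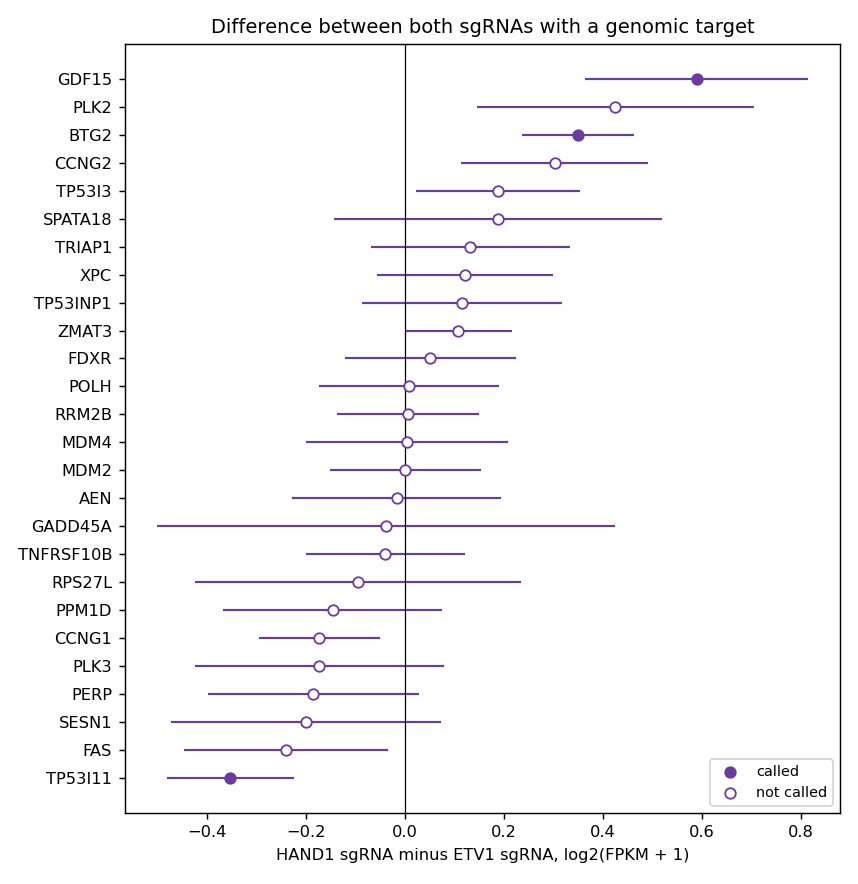
Difference of HAND1 sgRNA from ETV1 sgRNA for the 26 tested p53 targets, on the scale log2(FPKM + 1), ordered by size, with 95% confidence intervals (bars); filled points are calls. GDF15 (0.59) and BTG2 (0.35) are called higher and TP53I11 (-0.35) lower with HAND1 sgRNA, and MDM2 lies at 0.

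Other genes of the p53 pathway were counted in the same way, beside the shares of all genes tested. In a list of 30 further p53 targets, 24 were tested. Of these, 0 were called with both sgRNAs together, with ETV1 sgRNA, or between the targeting sgRNAs, against 2.43%, 0.203% and 4.05% of all genes. An unadjusted p under 0.05 was reached by 5, 4 and 4 of these 24, against 15.4%, 8.2% and 15.4% of all genes. With HAND1 sgRNA 2 of the 24 were called, 1 in each direction, against 6.6% of all genes, and 6 had an unadjusted p under 0.05, against 20.3%. With so few genes, nothing particular to the list can be read from these counts. BTG1, a relative of BTG2, was at 16.1 ± 1.11 FPKM with HAND1 sgRNA against 13.1 ± 0.754 with Luciferase sgRNA (0.28, adjusted p = 0.0447). Its level with ETV1 sgRNA was 15.8 ± 0.757 FPKM (0.25, adjusted p = 0.327), and both targeting groups lay above all control libraries. CYFIP2, a member of the WAVE actin-regulating complex, was at 8.90 ± 0.580 FPKM with HAND1 sgRNA against 11.2 ± 0.652 with Luciferase sgRNA (-0.31, adjusted p = 0.0333). The BTG1 call was kept in 8 and the CYFIP2 call in 11 of 19 alternative analyses.

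Of 20 genes upstream in the pathway, such as the checkpoint kinases, 17 were tested and limma called 0 in any comparison, where 0.203% to 6.6% of all genes were called. At most 2 had an unadjusted p under 0.05 in a comparison, against 8.2% to 20.3% of all genes. CHEK2, the kinase CHK2, was the nearest to a call for both sgRNAs together, at 10.5 ± 1.35 FPKM with ETV1 sgRNA, 9.79 ± 1.15 with HAND1 sgRNA and 12.04 ± 1.28 with Luciferase sgRNA (-0.23, adjusted p = 0.297). TP53BP1, a reader of chromatin at breaks, followed (-0.13, adjusted p = 0.445). All 20 genes listed for the repair of double-strand breaks were tested, and 1 was called, in the comparisons where 6.6% and 4.05% of all genes were. NBN, a subunit of the break-sensing MRN complex, was at 39.8 ± 2.12 FPKM with HAND1 sgRNA, 32.3 ± 1.46 with ETV1 sgRNA and 31.2 ± 1.15 with Luciferase sgRNA. It rose by 0.34 with HAND1 sgRNA against the control (adjusted p = 0.00639) and by 0.29 against ETV1 sgRNA (adjusted p = 0.0210). The call against ETV1 sgRNA was lost in 5 of 19 alternative analyses, without ETV1 sgRNA replicate 2 or 3, without HAND1 sgRNA replicate 2 or 3 (adjusted p from 0.0770 to 0.0910), and with the replicate number as a block (adjusted p = 0.0519). With ETV1 sgRNA against the control 0 of the 20 repair genes had an unadjusted p under 0.05.

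A p53 response also lowers cell cycle transcripts, through p21 and the DREAM repressor complex. Of 20 such genes, all tested, limma called 0 in any comparison, where 0.203% to 6.6% of all genes were called. At most 2 had an unadjusted p under 0.05, against 8.2% to 20.3% of all genes. PLK1, a mitotic kinase, was at 81.7 ± 4.91 FPKM with ETV1 sgRNA, 75.7 ± 3.08 with HAND1 sgRNA and 85.3 ± 2.73 with Luciferase sgRNA (both sgRNAs together -0.12, adjusted p = 0.299). CDK1, the kinase that drives entry into mitosis, was at 97.9 ± 10.8 FPKM with ETV1 sgRNA, 111 ± 2.82 with HAND1 sgRNA and 93.9 ± 7.19 with Luciferase sgRNA (0.15, adjusted p = 0.367).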

How the data were processed

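PolyA RNA of 9 GIST-T1 libraries was prepared with the RNeasy Plus and NEBNext Ultra II non-stranded kits for the NovaSeq6000, per the labels' protocols; without strand, overlapping and antisense genes cannot be told apart. The deposited values are FPKM per gene symbol, made by the authors with STAR, Cufflinks and hg19, per the submitters' processing notes; the sources used here give no versions, annotation or scaling between libraries. FPKM are not counts, so no count model was used. Values below 1e-06 were read as 0. Of 23610 genes, the 11348 that averaged 1 FPKM or more over the 9 libraries entered 1 limma model (version 3.58.1, R 4.3.3) of log2(FPKM + 1) on the group, with trended empirical Bayes variances (6 residual and 4.15 prior degrees of freedom). The script was first tested on simulated data. Relative depth was read from the ratios of low values between libraries. The members and lists were chosen with earlier results of these data known. Named genes were the 30 targets, ETV1 and HAND1, and from each further list the called genes, or the 2 with the smallest p for both sgRNAs together. Values by library were given for called targets, MDM2, TNFRSF10B, AEN and the 3 of highest mean, and for DDB2, which was added after its values were seen, as was CD68. Promoter sequences came from RefSeq (GRCh38.p14). Alternatives were pseudocounts of 0.1 and 5, no filter, a minimum of 5 FPKM, quantile normalization, median centring, a replicate block, library weights, no intensity trend, a fit of only the groups compared, and each library left out.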

Additional observations from a re-analysis of the deposited data

How the results depend on the processing

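In all 19 alternatives 0 p53 targets were called in the same direction with both sgRNAs. In the main fit only 0.123% of all genes were, so a count of 0 among 26 says little about a shared response. BTG2 with HAND1 sgRNA against the control and against ETV1 sgRNA, GDF15 and TP53I11 against ETV1 sgRNA, and PLK2 with HAND1 sgRNA were called in every alternative in which they were tested. The call of PLK2 for both sgRNAs together was kept in 15 of 17, and that of GDF15 with HAND1 sgRNA in 18 of 19. TP53I11 with ETV1 sgRNA was called in 6 of 19 (adjusted p from 0.0265 to 0.167). Under no filter, no intensity trend, only the groups compared or the replicate block, 0 targets were called with ETV1 sgRNA. For both sgRNAs together they fell to 0 at a minimum of 5 FPKM, where PLK2 was not tested. With library weights 5 targets were called with HAND1 sgRNA, CCNG2 and TP53I3 added. Library weights called 655 genes for both sgRNAs, 45 for ETV1 sgRNA and 1312 for HAND1 sgRNA, in place of 276, 23 and 749; with only the groups compared, 14 were called with ETV1 sgRNA. The cause was not tested.

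With each library left out, genes called ranged from 113 to 263 for both sgRNAs, 11 to 26 with ETV1 sgRNA, 433 to 730 with HAND1 sgRNA and 271 to 583 for HAND1 sgRNA against ETV1 sgRNA. Targets called ranged from 0 to 1, stayed at 0 with ETV1 sgRNA, ranged from 2 to 3 with HAND1 sgRNA and stayed at 3 between the targeting sgRNAs. Same-numbered libraries did not deviate together (correlations from -0.146 to 0.138, against -0.126 to 0.196 for libraries of different number). No pairing by number was thus seen, which does not exclude that libraries were prepared in matched sets. With the replicate block 193, 16, 632 and 364 genes and 1, 0, 3 and 3 targets were called in the same order of comparisons. The median of all genes lay between -0.0189 and 0.0171 (log2) in every alternative. Absolute depth is unknown and limits what can be said of the genes under 1 FPKM.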
